A study of Mus musculus with 12 samples.

Results

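The ventral hippocampus was compared with the dorsal hippocampus within Tet3 conditional knockout (cKO) mice. The members were the 6 cKO samples of the 12 in the series, chosen by their labels: ventral samples 40, 63 and 64 and dorsal samples 40, 43 and 64. All 6 came from adult mice of genotype Tet3fl/fl; Camk2a-CreERT2, homozygous for a floxed Tet3 allele and carrying a tamoxifen-inducible Cre recombinase. The Camk2a promoter drives this Cre in excitatory neurons of the forebrain, so the bulk tissue also holds interneurons, glia and vascular cells in which it is not active. Every animal received tamoxifen from 6 weeks of age at 50 mg/kg, with 2 injections a day for 5 days, a break of 7 days and 5 further days. The floxed line was C57BL/6N and the Cre line came from a B6;129S6 background, so the animals were of mixed descent. The 6 control samples carried the floxed alleles without Cre, and their labels give the tamoxifen protocol too. They were used here only for comparison with the cKO samples and in fits of all 12 samples. Regions were cut by hand, and RNA was read as 3′ end tags, in which 1 read stands for 1 transcript end. The labels do not state that the samples of a group are separate animals, and if they are not, the p-values measure technical spread alone.

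The hippocampus is a curved sheet of cells whose dorsal end is known for spatial memory and whose ventral end is known for anxiety and stress responses. Its excitatory neurons keep position-dependent gene expression in adulthood, with graded or sharply bounded transcripts along the long axis. The TET3 enzyme oxidises methylated cytosines of DNA, a step toward removal of the methyl mark. The comparison describes which transcripts marked the 2 ends of the structure in animals induced to lose this enzyme in adult neurons.

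Of 26787 genes listed for both regions, 15357 had enough counts to be tested. Total counts were 5.12 to 11.4 M in the dorsal and 6.69 to 9.21 M in the ventral cKO samples, and dorsal sample 64, the shallowest, had 2 sequencing runs where the others had 3. Mitochondrial transcripts took 3.64 to 3.81% of dorsal and 3.34 to 4.48% of ventral counts. The first principal component (39.3% of variance) parted the regions, with dorsal samples at -29.2 to -18.4 and ventral samples at 19.7 to 26.3. Choroid plexus transcripts, from the epithelium that secretes cerebrospinal fluid, set 1 sample of each region apart. CPM are counts relative to the library total alone, without the scaling for library composition that the fit used. Ttr, its most abundant marker, was at 97.9, 67.4 and 1986 CPM in dorsal samples 40, 43 and 64. In ventral samples 40, 63 and 64 Ttr was at 58.1, 1839 and 40.6 CPM. The hippocampal identity of both pieces was visible in Prox1, a homeobox gene of dentate granule cells (49.6 to 114 CPM over the 6 samples), and Rgs14, a signalling regulator of CA2 neurons (114 to 196 CPM). Tet3 itself was at 32.5, 41.8 and 41.8 CPM in the dorsal and 34.3, 24.8 and 32.1 CPM in the ventral samples (log2 fold change -0.30 ± 0.14, SE, adjusted p = 0.231). A 3′ tag can lie outside the deleted part, so this level checks nothing about the deletion.

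Between the regions, 1100 of the 15357 genes (7.16%) passed edgeR's quasi-likelihood test at a Benjamini-Hochberg adjusted p of 0.05, and these are the genes said to be called. Of these, 509 were higher in the ventral (3.31%) and 591 in the dorsal hippocampus (3.85%). Differences of at least 2-fold were more often toward the dorsal side, with 178 called genes against 84 toward the ventral side. The median size of a called log2 fold change was 0.54 in the ventral and 0.71 in the dorsal direction, beside a median of -0.0025 over all tested genes. The groups of 3 samples did not overlap for 1089 of the 1100 called genes, against 25.7% of all tested genes (10.1% with the ventral and 15.6% with the dorsal group higher). The call rests on the same values, so this separation follows largely from the call and is no further support for it. With 3 samples a side no exact permutation test can go below p = 0.10, so single genes rest on the fit across all genes. Both counts fell in each of the 6 fits that left out 1 sample, to 320 to 458 ventral and 426 to 463 dorsal genes. The lowest ventral counts were 331 without dorsal sample 64, 321 without ventral sample 63 and 320 without ventral sample 64. The ventral count was 290 when sample number entered the fit as a block (40 and 64 occur in both regions). Dorsal sample 43 and ventral sample 63 are then blocks of their own and add nothing to the difference. A call lost with the block therefore cannot be told apart from a call lost with fewer samples. With the level of choroid plexus transcripts as a covariate, 1099 genes were called.

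**Figure D1:**
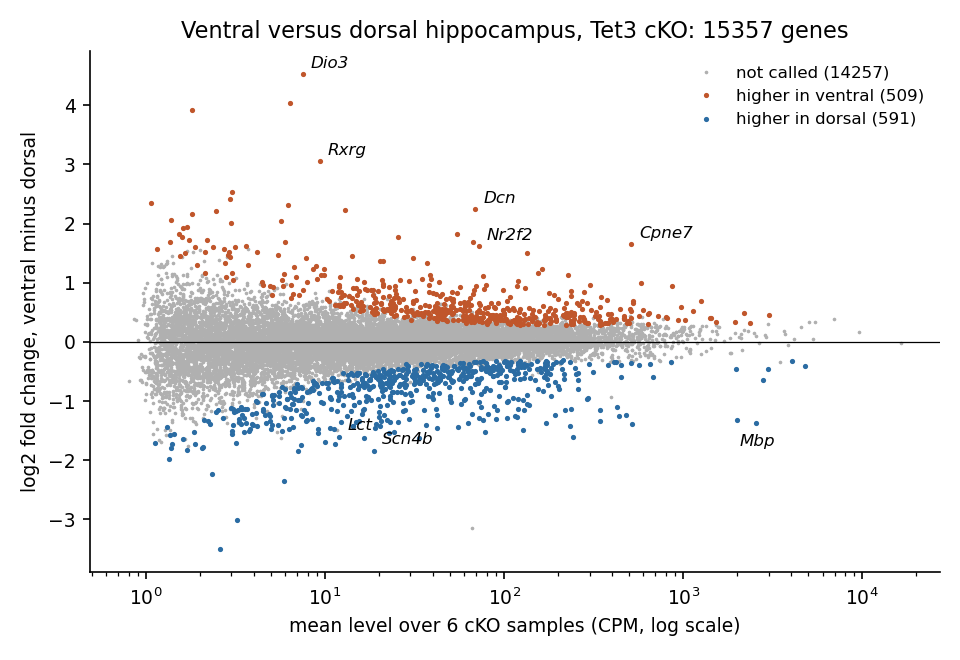
Each point is 1 of the 15357 tested genes, plotted by its mean level over the 6 cKO samples (CPM, log scale) and its log2 fold change, ventral minus dorsal. Orange points (509) were called higher in the ventral and blue points (591) in the dorsal hippocampus, grey points were not called, and Dio3 stands at the top with a log2 fold change of 4.52.

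The 5 genes named with the comparison as markers of the axis were all called, 3 toward the ventral and 2 toward the dorsal side. Cpne7 (ENSMUSG00000034796, chromosome 8, 123117374 to 123135182, plus strand, GRCm38) encodes a copine, a calcium-dependent membrane-binding protein. It was at 241, 238 and 277 CPM in dorsal samples 40, 43 and 64 and at 818, 730 and 760 CPM in ventral samples 40, 63 and 64. Every ventral sample thus lay far above every dorsal one, and the log2 fold change was 1.65 ± 0.09 (SE, adjusted p = 1.8e-07). Nr2f2 (ENSMUSG00000030551, chromosome 7, 70351944 to 70366735, minus strand), the nuclear receptor COUP-TFII, was at 31.0, 36.7 and 41.8 CPM in the dorsal and 110, 109 and 104 CPM in the ventral samples. Its log2 fold change was 1.61 ± 0.11 (adjusted p = 6.6e-07), with a spread of 3.07 CPM (SD, n = 3) among the ventral samples.

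Dio3 (ENSMUSG00000075707, chromosome 12, 110279068 to 110281097, plus strand), the deiodinase that inactivates thyroid hormone, came closest to an on and off pattern. Its levels were 0.263, 1.12 and 0.391 CPM in the dorsal and 10.9, 14.3 and 18.1 CPM in the ventral samples. These rested on 3, 12 and 2 dorsal and 100, 105 and 121 ventral counts, and the fitted log2 fold change was 4.52 ± 0.37 (adjusted p = 2.9e-06). Lct (ENSMUSG00000026354, chromosome 1, 128284756 to 128328318, minus strand) encodes lactase and is used as a marker of dorsal hippocampal neurons. It was at 20.4, 14.1 and 20.1 CPM in the dorsal and 8.36, 5.72 and 2.84 CPM in the ventral samples (-1.60 ± 0.27, adjusted p = 0.0019). The groups did not overlap, but the ventral samples differed among themselves by a larger ratio than for the other markers. Mbp (ENSMUSG00000041607, chromosome 18, 82475146 to 82585637, plus strand), myelin basic protein of oligodendrocytes, was at 4087, 3717 and 3324 CPM in the dorsal and 1467, 1262 and 1468 CPM in the ventral samples. Its log2 fold change was -1.37 ± 0.10 (adjusted p = 1.6e-06). All 5 calls held in each of the 6 fits that left out 1 cKO sample and with the block.

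**Figure D2:**
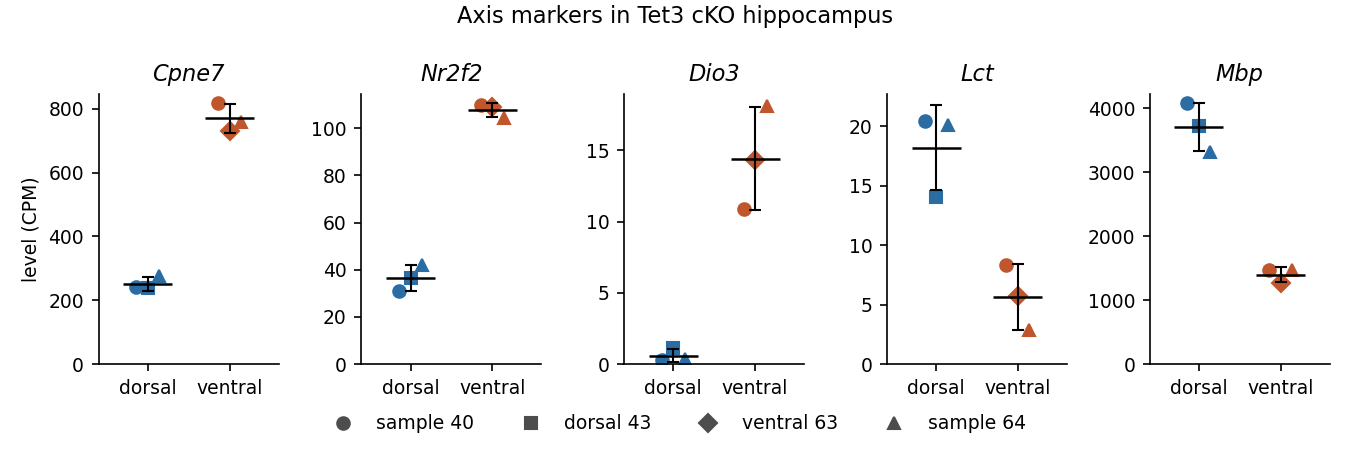
Levels (CPM, linear axes from 0) of the 5 axis markers in the 3 dorsal (blue) and 3 ventral (orange) cKO samples, with the mean and SD as black bars and the sample number given by the symbol. No dorsal and ventral points overlap for any of the 5 genes, and Dio3 lies near 0 in the dorsal samples.

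Promoter sequences are shown for 3 genes whose transcripts stood on opposite sides of the comparison: Nr2f2 and Rxrg, which are nuclear receptors higher in the ventral hippocampus, and Mag, a myelin gene higher in the dorsal hippocampus. Each run holds the 250 bases before a RefSeq transcript start (GRCm38.p6), 5′ to 3′ on the gene's strand. For each gene the first listed start whose 250 bases held the chosen motif was taken. The presence of the motif in these 3 runs was therefore fixed by the choice and is not a result. For Nr2f2 (chr7:70366747-70366996, minus strand) capitals mark CCAAT, the core of a general promoter element, or its reverse complement. An antisense transcript, B130024G19Rik, is annotated across this window. For Rxrg (chr1:167618015-167618264, plus strand), capitals mark AGGTCA, a nuclear receptor half-site, and the window belongs to an internal start inside the gene. For Mag (chr7:30914864-30915113, minus strand) capitals mark CTGGCAC, the core sequence bound by the myelin regulatory factor MYRF.
Nr2f2: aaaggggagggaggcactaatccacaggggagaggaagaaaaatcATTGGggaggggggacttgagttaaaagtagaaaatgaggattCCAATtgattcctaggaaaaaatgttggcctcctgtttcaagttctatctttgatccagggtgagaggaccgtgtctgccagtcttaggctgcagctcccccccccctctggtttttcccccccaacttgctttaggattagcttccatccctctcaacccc
Rxrg: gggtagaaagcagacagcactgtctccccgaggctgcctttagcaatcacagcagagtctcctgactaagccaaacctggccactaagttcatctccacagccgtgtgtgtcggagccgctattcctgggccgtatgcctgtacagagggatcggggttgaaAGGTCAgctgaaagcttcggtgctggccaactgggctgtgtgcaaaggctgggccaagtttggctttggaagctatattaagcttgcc
Mag: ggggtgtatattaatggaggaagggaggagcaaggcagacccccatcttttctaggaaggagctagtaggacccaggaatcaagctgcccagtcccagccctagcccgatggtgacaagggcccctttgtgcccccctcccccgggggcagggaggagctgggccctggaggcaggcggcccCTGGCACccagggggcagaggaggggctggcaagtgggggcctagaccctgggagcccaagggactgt
The motifs were counted on both strands in windows of 300 bases (250 before and 50 after the start). AGGTCA was present in 16.3% of all 32851 windows, in 10.8% of those of genes called higher in the ventral and in 11.9% of those of genes called higher in the dorsal hippocampus. CTGGCAC was present in 5.0% of all windows, in 3.9% and 6.7% of those of the ventral and dorsal genes, and in 4 of 22 windows of called oligodendrocyte genes (18.2%). CCAAT was present in 37.4%, 31.8% and 36.1%. Of the same 22 oligodendrocyte windows, 11 held CCAAT (50.0%) and 1 held AGGTCA (4.5%), so a share above that of all windows was not particular to CTGGCAC. These shares are descriptions, windows of 1 gene can share bases, and a match is not evidence of binding.

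The genes with the largest differences toward the ventral side (mean of at least 10 CPM there, groups not overlapping) were led by Dio3 and by secreted and signalling molecules. Rxrg, the retinoid X receptor gamma, was at 1.84, 2.72 and 1.17 CPM in the dorsal and 13.9, 16.7 and 19.6 CPM in the ventral samples (3.06 ± 0.25, adjusted p = 3.1e-06). Dcn, the small matrix proteoglycan decorin, was at 20.6, 23.5 and 30.3 against 96.3, 104 and 137 CPM (2.24 ± 0.15). Dlk1, an imprinted gene for a membrane protein related to Notch ligands, was at 5.26, 4.03 and 4.50 against 16.6, 21.4 and 25.8 CPM (2.22 ± 0.20). In all 3 genes ventral sample 64 was the highest of the 6. Further secreted factors were Vegfd, a vascular growth factor (2.32 ± 0.25), and Grp, the gastrin-releasing peptide of subsets of neurons (10.8, 12.2 and 12.3 against 35.6, 34.98 and 46.9 CPM, 1.77 ± 0.14). Gpc3, a cell-surface heparan sulfate proteoglycan, had a log2 fold change of 1.41 ± 0.22.

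Other genes of this ventral group act inside neurons. Syt17, a synaptotagmin, was at 20.2, 28.7 and 24.4 CPM in the dorsal and 78.0, 86.8 and 87.6 CPM in the ventral samples (1.82 ± 0.12). Pde11a, a phosphodiesterase that breaks down cyclic nucleotides, was at 25.3, 39.2 and 32.4 against 89.3, 114 and 100 CPM (1.68 ± 0.14). Hap1, the huntingtin-associated protein of intracellular transport, had the lowest p of all tested genes. It was at 68.7, 73.8 and 70.8 against 190, 205 and 197 CPM, with an SD of 2.58 CPM in the dorsal and 7.56 CPM in the ventral samples (1.51 ± 0.08, adjusted p = 1.8e-07). The imprinted proteolipid gene Nnat (1.42 ± 0.13), the keratin gene Krt77 (1.46 ± 0.18) and Kcng1, a silent potassium channel subunit (1.37 ± 0.17), completed the group.

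On the dorsal side the largest differences belonged to neuronal and matrix genes and, in larger number, to oligodendrocyte genes. Scn4b, an auxiliary sodium channel subunit, was at 30.1, 24.3 and 33.8 CPM in the dorsal and 4.78, 8.71 and 10.9 CPM in the ventral samples (-1.84 ± 0.22, adjusted p = 9.4e-05). Col6a3, a collagen VI chain, was at 14.5, 12.1 and 6.65 against 3.80, 2.86 and 2.54 CPM (-1.84 ± 0.28), with dorsal sample 64 nearest to the ventral ones. Igfbpl1, known from newborn neurons, was at 17.0, 8.34 and 8.60 against 2.61, 3.81 and 3.74 CPM (-1.75 ± 0.30), with dorsal sample 40 well above the other two. Of the 8 tested genes of the adult neurogenesis list, 5 had a higher ventral mean, beside 7623 of all 15357 tested genes. Sox11, a factor of immature neurons on that list, was called toward the ventral side (0.53 ± 0.13), though not without dorsal 40, dorsal 43 or ventral 64 (adjusted p of 0.0654 to 0.106). Thbs4, a thrombospondin of the matrix, was at -1.54 ± 0.19. Plekhg1, a guanine nucleotide exchange factor, was at -1.53 ± 0.14. Prr5l, a regulator of mTOR complexes, was at -1.52 ± 0.13. Rnf152, a ubiquitin ligase, was at -1.46 ± 0.12, and Plxnb3, a plexin, at -1.47 ± 0.19. Bcas1os2 (-1.69 ± 0.23) is annotated antisense within Bcas1, an oligodendrocyte gene, and since no strand setting is stated its reads cannot be told apart from those of its host.

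**Figure D3:**
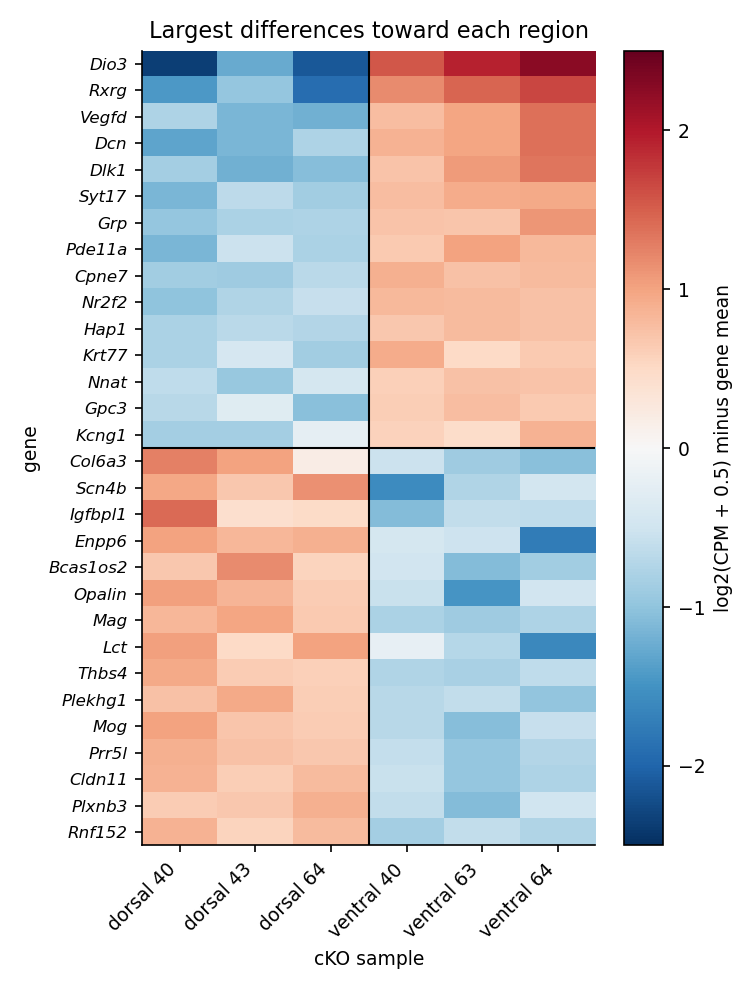
Heat map of the 15 genes with the largest differences toward the ventral (above the line) and the 15 toward the dorsal hippocampus (below it) in the 6 cKO samples, as log2(CPM + 0.5) minus the mean of the gene. The 3 dorsal and the 3 ventral columns have opposite colours in all 30 rows, and Col6a3 in dorsal sample 64 and Lct in ventral sample 40 are the palest exceptions. The genes were chosen for groups that do not overlap, so the opposite colours are not a result.

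The oligodendrocyte and myelin list was called nearly as a whole. Of its 25 tested members, 23 were called, all higher in the dorsal hippocampus, with a median log2 fold change of -1.33 beside -0.0025 over all genes. Summed over the list, the level was 9376 to 11270 CPM in the dorsal and 3760 to 4199 CPM in the ventral samples. In bulk tissue, fewer cells of a type and less RNA per cell cannot be told apart. Mag, an adhesion protein of the innermost myelin layer, had the lowest p of the list. It was at 367, 408 and 324 CPM in the dorsal and 119, 112 and 121 CPM in the ventral samples (-1.61 ± 0.10, adjusted p = 5.3e-07). Its ventral samples lay within a narrow band and did not overlap with the dorsal ones.

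The list covered every layer of oligodendrocyte function. Structural proteins included Mog (-1.53 ± 0.13), Mobp (-1.39 ± 0.11), Mal (-1.33 ± 0.14) and the tight junction protein Cldn11 (-1.48 ± 0.11). Enzymes included Ugt8a and Fa2h of myelin lipid synthesis (-1.25 ± 0.09 and -1.38 ± 0.13), Cnp (-1.24 ± 0.10) and the aspartoacylase Aspa (-1.46 ± 0.14). The iron carrier Trf was at -1.42 ± 0.09, and the gap junction proteins Gjb1 and Gjc3 were at -1.44 ± 0.12 and -1.21 ± 0.15. Enpp6, a marker of newly forming oligodendrocytes, was at -1.73 ± 0.25 and Opalin at -1.62 ± 0.19. Among transcription factors, Myrf (29.6, 27.5 and 32.8 against 14.8, 8.85 and 8.37 CPM, -1.42 ± 0.18), Nkx6-2 (-1.27 ± 0.13) and Sox10 (-1.07 ± 0.15) differed most, and Olig1 less (-0.68 ± 0.10). Olig2 (-0.51 ± 0.14, adjusted p = 0.0355) lost its call in 5 of the 6 fits without 1 sample (adjusted p of 0.0571 to 0.156, dorsal sample 64 being the exception) and with the block (0.0672). The other 22 calls held in all 6 fits.

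Markers of the precursor stage did not follow the mature cells. Pdgfra, the receptor of oligodendrocyte precursors, was at 20.3, 23.5 and 28.3 CPM in the dorsal and 25.0, 28.0 and 20.8 CPM in the ventral samples (0.09 ± 0.15, adjusted p = 0.778). Cspg4, the NG2 proteoglycan of the same cells, was at 17.0, 12.7 and 16.0 against 21.5, 20.01 and 16.7 CPM (0.39 ± 0.15, adjusted p = 0.152). Both groups overlapped, neither gene was called, and Pdgfra was below 0 without dorsal sample 40 (-0.013) or ventral sample 63 (-0.005).

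**Figure D4:**
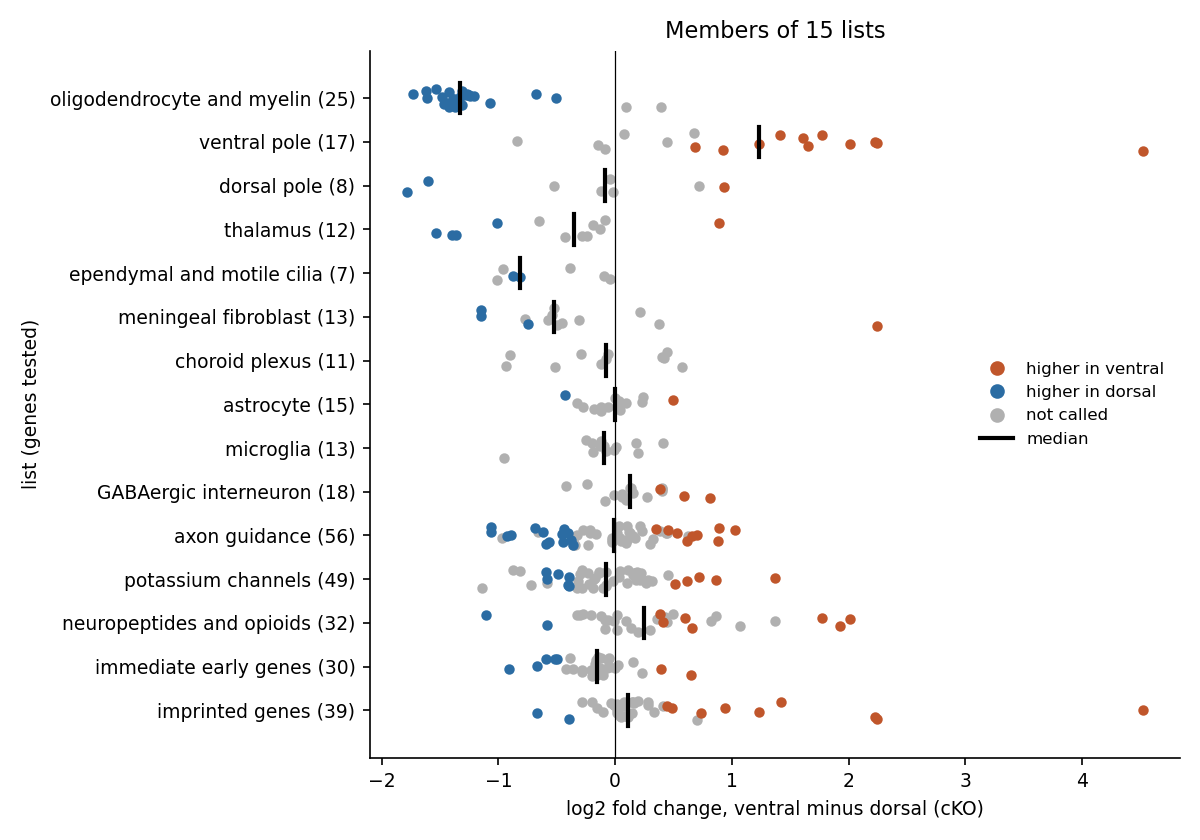
Log2 fold change, ventral minus dorsal, of every tested member of 15 lists in the cKO samples, with the number tested in brackets, called genes in orange (ventral higher) or blue (dorsal higher) and the list median as a black bar. The oligodendrocyte members lie in a block near their median of -1.33, the ventral pole members near 1.24, and most other lists spread to both sides of 0.

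Genes listed as markers of the poles fared unequally. In either direction, 64.7% of the ventral pole and 37.5% of the dorsal pole list were called, beside 7.16% of all tested genes. Of 17 tested ventral pole genes, 11 were called, all toward the ventral side, with a median of 1.24. Besides the genes above these included Trhr, the receptor of thyrotropin-releasing hormone (1.76, 0.937 and 0.782 against 6.08, 3.95 and 4.48 CPM, 2.01 ± 0.35). Coch, on the same list, was at 4.39, 4.68 and 7.23 against 1.09, 5.58 and 2.09 CPM and was not called (-0.84 ± 0.42, adjusted p = 0.28). The list shares 3 genes with the axis markers. Of 8 tested dorsal pole genes, 2 were called toward the dorsal side, Lct and Iyd. Nov, a matricellular protein that stood on the dorsal list, was called toward the ventral side at 38.3, 44.96 and 34.98 against 69.4, 66.3 and 86.4 CPM (0.93 ± 0.12, adjusted p = 0.00024). Wfs1, an endoplasmic reticulum protein of CA1 neurons, was at 107, 80.9 and 69.2 in the dorsal against 50.5, 82.2 and 115 CPM in the ventral samples (-0.05 ± 0.22, adjusted p = 0.94), a wide and overlapping spread. Iyd, the iodotyrosine deiodinase (-1.78 ± 0.41), was not called without dorsal sample 43 (adjusted p = 0.122), without ventral sample 64 (0.0688) or with the block (0.19).

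Subfield markers moved in both directions within a list. Called were 42.9% of CA1, 50% of CA2 and CA3 and 10% of dentate granule cell genes. For interneuron genes the share was 16.7%, beside 7.16% of all tested genes. Of 7 CA1 pyramidal genes, Fibcd1 (105, 77.4 and 95.0 against 190, 151 and 168 CPM, 0.91 ± 0.12) and Mpped1 were called toward the ventral side and Pou3f1 toward the dorsal side. Of 12 CA2 and CA3 genes, 2 were called toward the ventral side, Necab2, a calcium-binding protein (0.69 ± 0.12), and Trhr, and 4 toward the dorsal side, among them Lct and Cacng5, an AMPA receptor auxiliary subunit (17.2, 16.4 and 15.2 against 6.62, 7.49 and 7.32 CPM, -1.16 ± 0.16). Of 10 dentate granule cell genes, Lct alone was called. Among 18 interneuron genes 3 were called, all toward the ventral side: the growth factor receptor Kit (49.1, 47.9 and 51.6 against 96.3, 65.9 and 92.3 CPM, 0.82 ± 0.13), the cannabinoid receptor Cnr1 (0.59 ± 0.10) and Sst. Astrocyte markers (1 of 15 called each way, median -0.0027) and microglial markers (0 of 13, with 2 at an unadjusted p under 0.05) had sums of 5727 to 6129 CPM and 325 to 385 CPM over the 6 samples, without a gap between the regions. Over all tested genes, 3197 of 15357 were at an unadjusted p under 0.05. Mpped1, Pou3f1 and Sst each lost their call without at least 1 sample, namely Mpped1 without dorsal 64 (adjusted p = 0.0662) or ventral 64 (0.0864), Pou3f1 without dorsal 40 (0.0535) or dorsal 43 (0.0514), and Sst without dorsal 40, dorsal 43, ventral 63 or ventral 64 (0.0573 to 0.129).

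Some markers of neighbouring tissue differed between the regions, and others did not. Called were 41.7% of thalamic, 28.6% of ependymal and 30.8% of meningeal fibroblast genes, beside 7.16% of all tested genes. Of 12 thalamic genes, 4 were called higher in the dorsal piece: Plekhg1, the kinase gene Prkcd (41.6, 37.4 and 32.1 against 12.4, 15.9 and 14.5 CPM, -1.36 ± 0.14), the zinc finger gene Zic1 (65.4, 46.5 and 48.9 against 17.4, 28.7 and 13.7 CPM, -1.40 ± 0.21) and the vesicular glutamate transporter Slc17a6 (-1.01 ± 0.16). Ntng1, a netrin-like guidance protein on that list, was called toward the ventral side (0.89 ± 0.11). The thalamic sum was 440 to 491 CPM in the dorsal and 327 to 377 CPM in the ventral samples. The ependymal sum was 76.6 to 96.0 against 41.4 to 64.5 CPM, with 2 of 7 genes called toward the dorsal side, among them the ciliary master regulator Foxj1 (-0.88 ± 0.14). Of 13 meningeal fibroblast genes 3 were called toward the dorsal side, among them Ptgds (434, 450 and 551 against 149, 328 and 153 CPM, -1.15 ± 0.22), and Dcn toward the ventral side. Ptgds was not called by DESeq2 (adjusted p = 0.0694). The meningeal sums overlapped, at 619 to 809 CPM in the dorsal and 356 to 646 CPM in the ventral samples. In all 6 fits without 1 cKO sample, 2 of the 4 meningeal and 1 of the 2 ependymal calls held. Choroid plexus markers had 0 of 11 called (0 also at an unadjusted p under 0.05), with sums of 378 to 3233 CPM in the dorsal and 179 to 2636 CPM in the ventral samples. The part of these tissues in the differences of other genes was not tested. Cortical markers (0 of 12, with 3 at an unadjusted p under 0.05, beside 3197 of all 15357 genes) had overlapping sums, as had those of amygdala and striatum (1 of 14 each way). Vascular markers (1 of 14 each way) and haemoglobin (0 of 4, with 0 at an unadjusted p under 0.05) overlapped as well.

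Among 46 patterning transcription factors 4 were called each way (17.4%, beside 7.16% of all tested genes), with Nr2f2 the largest. Pou3f2, a POU factor of upper layer and hippocampal neurons, was at 29.1, 24.6 and 30.7 in the dorsal against 18.6, 16.7 and 17.3 CPM in the ventral samples (-0.63 ± 0.13, adjusted p = 0.0059). Nr2f1, the paralogue of Nr2f2, was at 348, 410 and 390 against 444, 520 and 442 CPM (0.33 ± 0.10, adjusted p = 0.0546), with no overlap of the groups but no call. Other than Nr2f2 and Pou3f2, the 6 called factors lost their call without at least 1 sample.

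Axon guidance genes were called in both directions, 9 of 56 toward the ventral and 14 toward the dorsal side (41.1%, beside 7.16% of all tested genes). Dorsal calls included Epha3, Epha4, Epha5, Epha10 and Ephb2, and the semaphorins Sema4d, Sema6a, Sema6d and Sema7a. Among the receptors of ephrins, Epha7 was at 185, 156 and 191 CPM in the dorsal and 93.2, 88.2 and 97.6 CPM in the ventral samples (-0.89 ± 0.09, adjusted p = 2.7e-05). Ephb1 was at 53.2, 51.8 and 51.2 against 22.4, 27.2 and 31.1 CPM (-0.93 ± 0.12). Of the netrin receptors, Unc5b was higher in the dorsal hippocampus (204, 181 and 175 against 103, 77.3 and 81.1 CPM, -1.06 ± 0.11), while its relative Unc5a was higher in the ventral one (0.61 ± 0.12). Slit2, a repellent ligand, was called toward the ventral side (39.7, 49.9 and 57.1 against 81.0, 86.3 and 93.1 CPM, 0.88 ± 0.12), and Robo3, a member of the Robo receptor family, toward the dorsal side (-1.06 ± 0.20). The teneurins Tenm1 (1.03 ± 0.12) and Tenm4 (0.70 ± 0.08), transmembrane adhesion proteins of synaptic partners, were both higher in the ventral hippocampus. Of the 23 calls, 10 held in all 6 fits without 1 sample. The call of Unc5a was lost when all 12 samples shared a fit (adjusted p = 0.167).

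Adhesion and Wnt genes were also called in both directions. Of 24 cadherins, 5 were called toward the ventral and 2 toward the dorsal side (29.2%, beside 7.16% of all tested genes). Of these 7 calls, 4 held in all 6 fits without 1 sample, all of them ventral. Pcdh19, a protocadherin of neuronal contacts, was at 160, 185 and 167 CPM in the dorsal and 324, 315 and 263 CPM in the ventral samples (0.85 ± 0.10), Cdh13 was at 0.58 ± 0.11 and Cdh4 at 0.76 ± 0.16. Of 31 Wnt genes, 6 were called toward the ventral and 5 toward the dorsal side (35.5%). The ligand Wnt7b was at 58.4, 100.04 and 88.1 against 144, 146 and 169 CPM (0.94 ± 0.15). The R-spondins, which strengthen Wnt signals, were represented by Rspo3 (0.89 ± 0.15) and Rspo2 (0.84 ± 0.18), and the secreted antagonist Frzb was at 0.88 ± 0.16. These 4 ventral Wnt calls held in all 6 fits without 1 sample, while the other 7 Wnt calls did not.

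In the thyroid hormone list (9 tested), 3 genes were called toward the ventral and 2 toward the dorsal side. That is 55.6%, beside 38.5% of the retinoid list, 18.2% of the corticosteroid and CRH list and 7.16% of all tested genes. Crym, which binds thyroid hormone in the cytosol, was at 131, 155 and 150 against 342, 273 and 312 CPM (1.13 ± 0.10, adjusted p = 6.7e-06). Hr, a corepressor that thyroid hormone induces, was lower in the ventral hippocampus (5.26, 5.15 and 4.30 against 1.19, 1.77 and 1.49 CPM, -1.71 ± 0.29). The receptors Thra (0.27 ± 0.10, adjusted p = 0.139) and Thrb (-0.04 ± 0.11) and the activating deiodinase Dio2 (0.15 ± 0.11) were not called. In the retinoid list (13 tested), 2 genes were called toward the ventral and 3 toward the dorsal side. The ventral ones were the receptors Rxrg and Rxra (0.47 ± 0.12), the latter not called without dorsal 40, dorsal 64, ventral 63 or ventral 64 (adjusted p of 0.0576 to 0.108) or with the block (0.0863). On the dorsal side stood Cyp26b1, the enzyme that degrades retinoic acid, at 57.5, 52.6 and 62.9 in the dorsal against 23.9, 25.7 and 27.5 CPM in the ventral samples (-1.13 ± 0.11, adjusted p = 1.2e-05). Aldh1a1 (-0.76 ± 0.17) and Aldh1a2 (-1.15 ± 0.30) were called toward the dorsal side too, but neither call held in every fit without 1 sample. In the corticosteroid and CRH list (11 tested), 2 genes were called, both toward the dorsal side. Hsd11b1, which regenerates active glucocorticoid, was at 30.7, 24.8 and 27.4 against 19.1, 13.6 and 13.3 CPM (-0.80 ± 0.16). The mineralocorticoid receptor Nr3c2 was not called (-0.17 ± 0.14). Nr3c1, the glucocorticoid receptor (-0.38 ± 0.10, adjusted p = 0.0307), was not called without dorsal 40 (0.112), dorsal 64 (0.0502), ventral 40 (0.13) or ventral 63 (0.11), nor with the block (0.0728).

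The share called was 28.6% of acetylcholine, 20% of serotonin and 12.5% of dopamine and adrenergic receptor genes and 28.1% of neuropeptide genes, beside 7.16% of all tested genes. Of 7 acetylcholine receptor genes, Chrm3 was at 227, 223 and 187 CPM in the dorsal and 107, 123 and 120 CPM in the ventral samples (-0.83 ± 0.10, adjusted p = 9.1e-05), and Chrm2 was the second called one. Of 8 dopamine and adrenergic receptor genes, Adra2a was called toward the ventral side (0.71 ± 0.13). Of 10 serotonin receptor genes, Htr2c was called toward the ventral and Htr1f toward the dorsal side, and Htr1a, the main inhibitory one, was not called (0.15 ± 0.12). Htr2c was not called without dorsal 43 (adjusted p = 0.0557), Htr1f without dorsal 43 (0.0881), and neither with the block (0.0709 and 0.19). Chrm2 was not called in any of the 6 fits without 1 sample (0.0649 to 0.162). Among 32 neuropeptide and peptide receptor genes, 7 were called toward the ventral and 2 toward the dorsal side. Besides Grp and Trhr, the ventral ones included the somatostatin receptor Sstr3 (0.60 ± 0.10) and the neuropeptide Y receptor Npy1r (14.1, 15.7 and 14.3 against 20.7, 23.4 and 24.2 CPM, 0.66 ± 0.13). Adcyap1, the peptide PACAP, was called toward the dorsal side (9.12, 7.40 and 8.21 against 3.69, 3.81 and 3.74 CPM, -1.10 ± 0.21).

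Channels and transmitter receptors differed by subunit. Called were 18.2% of glutamate receptor and 12.5% of GABA receptor genes, beside 7.16% of all tested genes. For potassium channels the share was 22.4%, and for sodium, calcium and HCN channels 22.2%. Of 33 glutamate receptor genes, 4 were called toward the ventral and 2 toward the dorsal side. Grin3a, an NMDA receptor subunit that lowers calcium entry, was at 15.9, 19.7 and 16.6 CPM in the dorsal and 34.1, 32.8 and 38.8 CPM in the ventral samples (1.04 ± 0.13, adjusted p = 1.0e-04). The AMPA receptor auxiliary gene Cnih3 was at 13.0, 15.4 and 15.05 against 28.7, 26.8 and 27.8 CPM (0.98 ± 0.12) and the metabotropic receptor Grm5 at 0.44 ± 0.09. The obligatory NMDA subunit Grin1 (-0.18 ± 0.13) and the AMPA subunit Gria1 (0.09 ± 0.10) were not called. Of 16 GABA receptor genes, Gabra3 and Gabrb1 were called toward the ventral side, but neither call held in every fit without 1 sample. Of 49 potassium channel genes, 5 were called toward the ventral and 6 toward the dorsal side. Kcnd3, of transient A-type currents, was at 37.7, 42.1 and 39.9 against 60.3, 68.6 and 63.9 CPM (0.72 ± 0.10), while Kcna1, a delayed rectifier of axons, was at 77.7, 79.0 and 79.0 against 56.0, 49.5 and 47.2 CPM (-0.58 ± 0.10) and Kcnab1 at -0.59 ± 0.11. Of 27 sodium, calcium and HCN channel genes, 2 were called toward the ventral and 4 toward the dorsal side. The T-type calcium channel gene Cacna1g was at 0.85 ± 0.13 and the sodium channel gene Scn1a at -0.45 ± 0.08. Gabra3 was not called without dorsal 40, dorsal 64 or ventral 63 (adjusted p of 0.0562 to 0.0714), and Gabrb1 in any of the 6 fits (0.0641 to 0.157).

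Immediate early genes, whose transcription rises rapidly with neuronal activity, had a lower mean in the ventral samples for 25 of 30 members, with a median of -0.16 and 5 called toward the dorsal side. Over all 15357 tested genes, 7734 had a lower mean in the ventral samples and 3.85% were called toward the dorsal side. Arc, which acts at active synapses, was at 108, 110 and 151 CPM in the dorsal and 55.8, 49 and 85.8 CPM in the ventral samples (-0.91 ± 0.17, adjusted p = 0.0037). Sample 64 was the highest of each region. Egr1 was at 971, 650 and 857 against 482, 529 and 589 CPM (-0.60 ± 0.13), and Egr4 at -0.50 ± 0.09. Fos, at 29.8, 24.8 and 39.1 against 20.96, 15.1 and 33.2 CPM, overlapped and was not called (-0.39 ± 0.22). Jun went the other way (62.1, 73.4 and 84.2 against 115, 113 and 105 CPM, 0.65 ± 0.10), as did Fosl2. The calls of Nr4a1 (-0.67 ± 0.14) and Ier5 (-0.52 ± 0.11) were lost when all 12 samples shared a fit (adjusted p = 0.0747 and 0.0932). Fosl2 was not called without dorsal 40, dorsal 43, ventral 40 or ventral 64 (0.0879 to 0.126).

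Of 39 tested genes listed as imprinted, 9 were called toward the ventral and 2 toward the dorsal side (median 0.11). The share called was 28.2%, beside 7.16% of all tested genes. An imprinted gene is expressed from 1 parental allele, though not always in every tissue, and allelic expression was not measured here. The cluster on chromosome 12 that holds Dlk1 and Dio3 at its ends was not uniform. Its noncoding genes Meg3 (9059, 9477 and 8939 CPM in the dorsal and 9728, 9851 and 10485 CPM in the ventral samples, 0.17 ± 0.07), Rian (-0.04 ± 0.09) and Mirg (-0.01 ± 0.09) were not called, beside 2.22 for Dlk1 and 4.52 for Dio3. The neighbours Nnat and Blcap, which share a locus on chromosome 2, were both called toward the ventral side (1.42 ± 0.13 and 0.49 ± 0.10). Of the 11 calls, 5 held in all 6 fits without 1 sample. Rtl1, also of the chromosome 12 cluster, was called toward the ventral side (0.74, adjusted p = 0.0491) but in none of these 6 fits (0.0614 to 0.16).

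The DNA methylation machinery had 1 call among 25 tested genes (4%, beside 7.16% of all tested genes). Tet1, a paralogue of the deleted gene, was at 13.2, 15.6 and 18.0 CPM in the dorsal and 10.5, 8.30 and 8.52 CPM in the ventral samples (-0.71 ± 0.17, adjusted p = 0.0217). The groups did not overlap, but Tet1 was not called without dorsal 43 (0.0681), dorsal 64 (0.0795), ventral 63 (0.0744) or ventral 64 (0.0834), nor with the block (0.146). Tet2 was at 39.1, 45.2 and 42.6 against 37.0, 35.9 and 37.7 CPM, without overlap but not called (-0.16 ± 0.10, adjusted p = 0.405). Of 25 genes of cholesterol and fatty acid synthesis, 8% were called, near the 7.16% of all tested genes. The list median was 0.11, and 15 members were higher in the ventral samples. The called genes were the desaturases Scd1 (96.6, 90.7 and 80.3 against 57.5, 50.6 and 52.6 CPM, -0.70 ± 0.10) and Scd2 (-0.46 ± 0.09). Both were higher on the dorsal side, where the oligodendrocyte sum was higher. The part of the oligodendrocytes in this difference was not tested. Transcripts of the mitochondrial genome had 0 of 14 called, with 5 at an unadjusted p under 0.05, and 11 had an unadjusted interaction p under 0.05. Over all tested genes these counts were 3197 of 15357 between regions and 1307 of 16414 in the interaction.

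Whether the dorsoventral difference in cKO mice differed from that in controls was tested as an interaction of region and genotype over all 12 samples. None of 16414 genes (0) passed edgeR's quasi-likelihood test, with 1307 at an unadjusted p under 0.05 and a smallest adjusted p of 0.125. limma-voom called 0 and DESeq2 34. The median SE of the interaction was 0.238, larger than the median of 0.153 for the difference between regions, so a missed threshold does not show that the genotypes were alike. In the controls alone, 1010 of 15701 genes (6.43%) were called between regions, 451 toward the ventral (2.87%) and 559 toward the dorsal side (3.56%). Of the 1096 genes called in cKO and tested in controls, 1021 had the same sign there and 556 were called. The control log2 fold change was 1.71 for Cpne7, 1.72 for Nr2f2, 4.36 for Dio3 and -1.35 for Mbp, beside cKO values of 1.65, 1.61, 4.52 and -1.37. For Lct it was -2.42 in controls and -1.60 in cKO, and that difference did not pass the test (interaction adjusted p = 0.685).

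**Figure D5:**
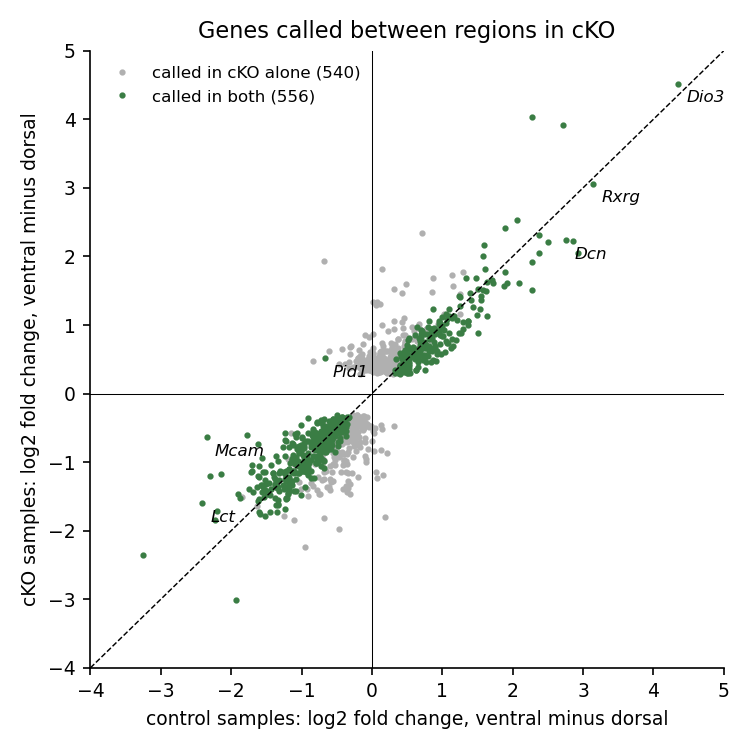
The 1096 genes called between regions in cKO and tested in controls, plotted by the log2 fold change, ventral minus dorsal, of the control samples (horizontal) and of the cKO samples (vertical), with a dashed line of equality. Green genes (556) were called in both and grey genes (540) in cKO alone, and most points lie in the quadrants of equal sign.

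The 5 genes with the lowest interaction p all had a higher ventral minus dorsal difference in cKO than in controls, and none passed. Pid1, a cytosolic phosphotyrosine-binding protein, was the one gene called in opposite directions: in cKO it was at 72.2, 56.2 and 54.1 CPM in the dorsal and 83.0, 100 and 72.3 CPM in the ventral samples (0.51 ± 0.14), against a control log2 fold change of -0.67 (interaction 1.19 ± 0.24, adjusted p = 0.325). Its cKO call was lost without dorsal 43, dorsal 64, ventral 40 or ventral 63 (adjusted p of 0.0762 to 0.146) and with the block (0.147). Cadm4, an adhesion molecule of axons and glia, was at 0.08 ± 0.10 in cKO and -0.82 in controls. Mkx, a homeobox gene, was at 0.11 ± 0.19 and -1.20, Mt3, a brain metallothionein, at 0.31 ± 0.11 and -0.71, and the predicted gene Gm2830 at -0.04 ± 0.11 and -0.82. Mkx was below 0 in cKO without dorsal 43 (-0.048) or ventral 63 (-0.018), and Gm2830 above 0 without dorsal 40 (0.076). The interaction had 4 calls without dorsal cKO sample 40, 1 without dorsal cKO sample 64 and 3 without ventral control sample 41, and 0 without each of the other 9 samples.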

How the data were processed

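RNA from hand-dissected dorsal and ventral hippocampus of 12 samples was sequenced as 3′ end tags (QuantSeq kit, 500 ng of total RNA, per the labels' protocols). The authors deposited 1 table per region with raw read counts per gene and run. cutadapt, HISAT2, featureCounts, edgeR and GRCm38 are named without versions in the submitters' processing notes, and the strand setting is not given in the sources used here. The authors also deposited a scaled signal per run, described in the headers as CPM, which was not used. No per-sample column was left without a sample (0).

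Counts were summed over runs per sample and the tables joined by gene identifier (29407 dorsal and 29146 ventral genes, 26787 in both). edgeR 4.0.16 (R 4.3.3) fitted the 6 cKO samples with TMM scaling, its default filter on low counts and a quasi-likelihood test, with Benjamini-Hochberg adjustment over all genes tested. A fold change is log2 ventral minus dorsal, and its SE is the fold change divided by the square root of F. The interaction used all 12 samples. The scripts were tested on simulated data. Alternatives used DESeq2 1.42.0 and limma 3.58.1.

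The members and the 40 gene lists were chosen with earlier results of these data known. Lists share members and were not tested as sets. Named were the axis markers, the Tet genes, the 15 largest called changes toward each region (no overlap, mean of at least 10 CPM in the higher group, predicted genes and pseudogenes left out), the 4 members with the lowest p in each list with its family where needed, and the 5 lowest interaction p-values. Other genes named, and the motifs, were chosen after their values were seen. Gene positions are from GENCODE M21 and promoters from RefSeq, which matched 371 of the 509 ventral and 424 of the 591 dorsal genes.

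Numbers 40 and 64 occur in both regions in the same genotype and were read as animal numbers, which the labels do not state. Deviations from the group means correlated at 0.021 for number 40 and -0.10 for number 64. No 2 libraries agreed within sampling noise (chi-square per gene of 4.98 to 8.09 within groups).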

Additional observations from a re-analysis of the deposited data

How the results depend on the processing

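Over the alternatives the number of genes called between regions in cKO stayed within 1.5 times of 1100 except in 2 cases. With run 1 of each sample alone it was 555 (241 ventral, 314 dorsal, with fewer counts), and in a test against a 1.5-fold change 132 (42 ventral, 90 dorsal). It was 1580 without a filter on low counts, 1113 with DESeq2 and 1151 with limma-voom. Leaving out 1 cKO sample gave 746 to 921 genes, of which 320 to 458 were ventral and 426 to 463 dorsal, and list genes fell from 170 to between 132 and 139. With the replicate block as a fixed term there were 747 genes, 290 of them ventral, and with a random replicate block in limma-voom 1218. Of the 170 list genes called, 95 were called in all 6 fits without 1 sample and 114 with the fixed block. The interaction called 34 genes with DESeq2, 13 without a filter, 0 to 4 without 1 sample and 0 with the random replicate block.

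Directions under the alternatives were tabulated for 213 genes, and those that turned were not called between regions. Over the 6 fits without 1 cKO sample the log2 fold change ranged from -0.11 to 0.076 for Gm2830, from -0.35 to 0.21 for Wfs1, from -0.013 to 0.20 for Pdgfra, from -0.12 to 0.062 for Thrb, from -0.048 to 0.23 for Mkx, from -0.27 to 0.14 for Rgs14, from -0.078 to 0.048 for Mirg, from -3.78 to 3.00 for Ttr, from -0.033 to 0.16 for Gria1, from -0.11 to 0.032 for Rian and from -0.45 to 0.026 for Prox1. With the fixed replicate block it was -0.18 for Mkx, -0.0028 for Pdgfra, 0.16 for Rgs14, 0.0086 for Rian and 0.092 for Mirg. With run 1 alone it was -0.033 for Cadm4, 0.073 for Gm2830, 0.21 for Gm10925, 0.047 for Rian and 0.16 for Mirg. With the choroid plexus level as a covariate Ttr was at 0.16. The cause of these shifts was not tested. Depth limits genes below about 1 CPM, where a sample gives 5 to 11 counts.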

Other observations

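Some large differences lay below the minimum level or outside the lists, and were chosen after their values were seen. Lefty2, a secreted antagonist of Nodal, was at 2.81, 2.06 and 1.56 CPM in dorsal samples 40, 43 and 64 and at 7.60, 9.26 and 10.6 CPM in ventral samples 40, 63 and 64 (log2 fold change 2.05 ± 0.26, adjusted p = 0.00015 by edgeR's quasi-likelihood test). Nnmt, nicotinamide N-methyltransferase, was at 0.439, 1.03 and 1.56 against 3.69, 5.04 and 5.83 CPM (2.42 ± 0.39). Tnni3k, a kinase best known from heart muscle, rested on 2, 4 and 0 dorsal and 31, 26 and 23 ventral counts. The chemokine Cxcl5 went the other way, at 7.63, 4.50 and 5.08 against 0.543, 0.953 and 0.598 CPM (-3.01 ± 0.37, adjusted p = 0.00012). All 4 genes had groups that did not overlap, and the control log2 fold change had the same sign in each (2.37 for Lefty2, 1.90 for Nnmt, 2.71 for Tnni3k and -1.94 for Cxcl5).

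Gm10925, a pseudogene on chromosome 1 that resembles mitochondrial sequence and may share reads with it, had 1714 counts in dorsal sample 64 and 81 to 162 counts in the other 5 cKO samples (-3.14 ± 0.94, adjusted p = 0.0603 by edgeR, not called). Without dorsal sample 64 its log2 fold change was -0.081.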
